A study of Mus musculus with 14 samples.

Results

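Gene expression after transfection of the siRNA reagent siAirn-001.2 was compared with that after a scrambled siRNA, siScramble, in HL-1 cells. The comparison uses the 4 siAirn-001.2 arrays and the 6 siScramble arrays, 10 of the 14 arrays of the study, chosen by their group labels, and all 20193 genes of the deposited table. The other 4 arrays, of the second reagent siAirn-001.1, add to the estimate of the spread and enter the comparison of the reagents. HL-1 is a mouse line of atrial heart muscle cells that contracts in culture, and all 3 groups were grown in Claycomb medium with serum and norepinephrine, an adrenergic agonist. Every group received siRNA at 10 nM in a lipid carrier, so lipid and double-stranded RNA were common to the controls and the treated cells. No untransfected cells are among the arrays. Total RNA was hybridised as biotin-labelled cRNA to Affymetrix arrays. The labels call the replicates biological but name no separate cultures, so the p-values describe array-to-array spread, part of which may be technical. They give neither the time after transfection nor the feature that sets the 2 reagents apart. HL-1 is 1 immortalised line that a viral oncogene driven by an atrial promoter gave rise to, which limits it as a model of atrial tissue.

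Airn is a long non-coding RNA transcribed from the paternal chromosome, antisense to Igf2r, the receptor that clears insulin-like growth factor 2. Its transcription silences Igf2r on the same chromosome, and in mouse placenta it also represses the transporter genes Slc22a2 and Slc22a3. An siRNA acts on the RNA in the RNA-induced silencing complex, and any siRNA can also pair with unintended transcripts or be sensed as foreign RNA. Heart muscle cells draw most of their energy from mitochondrial oxidation, and the lists described below were chosen to cover that metabolism, contraction, stress, innate immunity, growth and matrix.

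Values are log2 expression as the authors deposited them, so a difference of 1 is 2-fold. All 14 arrays entered 1 limma model of 3 groups, and a gene was called changed where its Benjamini-Hochberg adjusted p over the 20193 genes was below 0.05. Errors after a change are standard errors (SE) in that fit. Array medians lay between 7.45 and 7.55, and no pair of arrays held identical values. Several arrays stood apart within their groups. The siScramble replicates 1 to 4 correlated across genes at a median of 0.9974 with each other but at 0.9942 with replicates 5 and 6, which correlated at 0.9967. Among the siAirn-001.2 arrays, replicate 1 correlated at 0.9959 with 2, and 3 at 0.9972 with 4, while the 2 pairs correlated at a median of 0.9914, below the 0.9938 and 0.9939 of each pair with siScramble. Results are therefore also given without siScramble replicates 5 and 6, and for siAirn-001.2 replicates 1 and 2 beside 3 and 4. The labels name no batch, so what separates these arrays cannot be read from them. The difference between the 2 pairs was not tested.

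Atrial muscle genes were present at high level. Of 12 markers 11 were measured, among them the myosin light chains Myl4 at 13.52 and Myl7 at 13.09, cardiac actin Actc1 at 13.69 and troponin T Tnnt2 at 13.38 (siScramble means), against 7.49 for the median gene. Sarcolipin (Sln, 6.24) and connexin 40 (Gja5, 6.47) lay below the median gene. The mean over the atrial markers ranged from 11.08 to 11.29 on the siScramble arrays and from 11.06 to 11.22 on the siAirn-001.2 arrays, so the groups overlapped. Gja1 was the 1 called marker. Markers of fibroblasts (means of 6.93 to 7.42 on siScramble and 6.88 to 7.23 on siAirn-001.2 arrays), endothelium (6.52 to 6.71 and 6.54 to 6.66) and leukocytes (6.10 to 6.23 and 6.09 to 6.33) averaged below the median gene, and none was called. Smooth muscle markers averaged 10.56 to 10.75 and 10.55 to 10.67, led by Acta2 at 13.98, a gene that immature heart muscle also expresses. In bulk RNA, fewer cells of a type and less RNA per cell cannot be told apart.

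The targeted RNA itself, Airn (transcript cluster 10441787), was among the bright genes, at the 97.9th percentile of siScramble levels. It read 12.16, 11.90, 11.78, 11.98, 12.06 and 12.03 on siScramble replicates 1 to 6, and 11.93, 11.67, 10.71 and 10.85 on siAirn-001.2 replicates 1 to 4. Replicates 3 and 4 thus lay well below every control array, replicate 2 just below them and replicate 1 inside their range. Taken against the siScramble mean of 11.98 (SD 0.13), the 4 arrays held 96.2%, 80.5%, 41.4% and 45.5% of the control level. The group mean was 11.29 (SD 0.60), a difference of -0.69 ± 0.23, which missed the threshold in limma (adjusted p = 0.193) and gave p = 0.0143 in an exact two-sided permutation of the 210 splits of the 10 arrays. With replicates 3 and 4 alone the difference was -1.21 (limma adjusted p = 0.00555), and with replicates 1 and 2 alone -0.18 (adjusted p = 0.814). The siAirn-001.1 arrays split by number in the same way, at 11.89, 11.82, 10.94 and 10.93. Replicates 1 and 2 carry the siAirn-001.2 label with little or no fall in Airn, so siAirn-001.2 names here the arrays labelled so, whatever their Airn level.

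**Figure D1:**
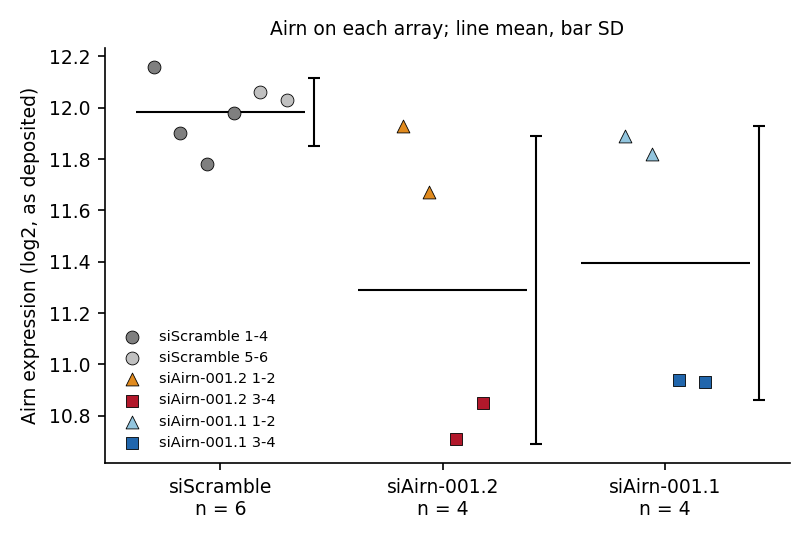
Deposited log2 expression of Airn on each of the 14 arrays (vertical axis) by group; points are arrays, horizontal lines group means and bars the SD. Replicates 3 and 4 of both reagents read 10.71 to 10.94, and every other array 11.67 or more.

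Genes beside Airn on its chromosome showed no called change. Of 13 genes in the locus list, Airn itself among them, 0 were called by limma and 3 had an unadjusted p under 0.05. Those 3 included Airn and Acat2, so they do not all describe neighbours. The list's median change was -0.039, against -0.002 over all genes. Igf2r changed by -0.06 ± 0.06 (adjusted p = 0.894) from a siScramble median of 6.91, Slc22a2 by -0.04 and Slc22a3 by -0.05, all of them under the median gene's level. Acat2, a cholesterol-pathway thiolase encoded near Airn, read 10.62 to 10.92 (median 10.79) on siScramble and 10.81, 10.55, 10.22 and 10.13 on siAirn-001.2. Its change of -0.34 ± 0.12 was not called with 4 arrays (adjusted p = 0.202) but was with replicates 3 and 4 alone (-0.60, adjusted p = 0.00423).

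Across the transcriptome 192 genes were called, 0.951% of those tested, 97 higher (0.48%) and 95 lower (0.47%) with siAirn-001.2. Without adjustment, 2288 genes had a p under 0.05. Changes were modest, with a median of 0.425 among the rises and -0.42 among the falls, and 30 genes passed 1.5-fold, 16 up and 14 down. In 182 of the 192 the 4 siAirn-001.2 arrays did not overlap the 6 siScramble arrays. Over all genes the arrays did not overlap in 350 above (1.73%) and 406 below (2.01%). The count rested on single arrays: it fell to 46 without siAirn-001.2 replicate 3, to 62 without replicate 4 and to 76, 80 and 90 without siScramble 2, 4 and 1, and 41 genes (25 up, 16 down) were called in all 10 fits that left out 1 array. Among the genes named below, Shmt2, Mthfd2, Aldh1l2, Ucp2, Mrpl21, Rai12, Spin4, Shisa6, Atp6v0e2, Kcnj3, Sytl2, Itga8, Fmod, Prelp, Fbn2 and Adra2b were called in each of those fits.

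The called changes were also split by pair. Among the 97 rises the median was 0.409 in replicates 1 and 2 and 0.448 in replicates 3 and 4, and 59 were larger in 3 and 4. The 95 falls had medians of -0.358 and -0.486, and 64 were deeper in 3 and 4. Fitted alone, replicates 1 and 2 gave 76 called genes (0.376%; 55 up, 0.272%, and 21 down, 0.104%) and replicates 3 and 4 gave 907 (4.49%; 355 up, 1.76%, and 552 down, 2.73%). Of the 192, 36 were called with the first pair, 143 with the second, and none was called in the opposite direction by either. The 192 were chosen on these same 4 arrays, and in 182 all 4 lay outside the siScramble range. Agreement of the pairs in direction was thus largely fixed by that choice and is no separate support. Without siScramble 5 and 6, 413 genes were called (2.05%; 182 up, 0.901%, and 231 down, 1.14%), 167 of the 192 among them.

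**Figure D2:**
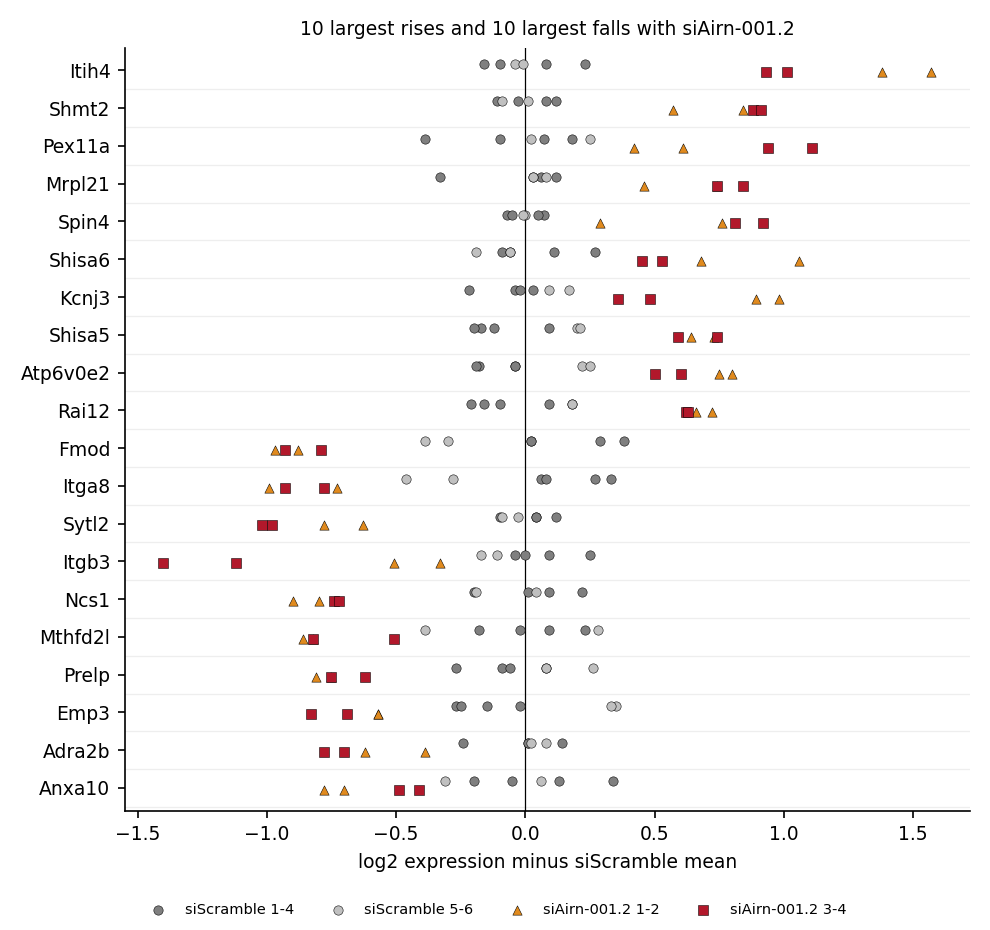
Log2 expression minus the siScramble mean (horizontal axis) for the 10 largest rises and 10 largest falls among genes that were called and, by the choice made here, had all 4 siAirn-001.2 arrays outside the siScramble range, a limit that leaves out Matn3. Each point is an array, and for Itgb3 replicates 3 and 4 lie far below 1 and 2.

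The largest rise was in Itih4, a secreted inter-alpha-trypsin inhibitor heavy chain that the liver makes as an acute-phase protein. It read 7.67 to 8.06 (median 7.81) on siScramble and 9.40, 9.21, 8.76 and 8.84 on siAirn-001.2, a 2.33-fold rise of 1.22 ± 0.25 (limma adjusted p = 0.0318). All 4 arrays were above the controls, but the call was lost in 8 of the 10 fits that left out 1 array (adjusted p up to 0.0832) and without siScramble 5 and 6 (adjusted p = 0.0505). Firmer calls with smaller changes were Shmt2, Rai12 (elongator subunit, also named Elp5; 0.66 ± 0.08, adjusted p = 0.00121), Mrpl21 (mitochondrial ribosome; 0.70 ± 0.09, adjusted p = 0.00279), Spin4 (histone-binding spindlin family; 0.69 ± 0.09, adjusted p = 0.00293) and Atp6v0e2 (proton pump subunit; 0.66 ± 0.09, adjusted p = 0.00371). Pex11a, which promotes division of peroxisomes, rose by 0.76 (adjusted p = 0.0278), and its replicates 3 and 4 stood above 1 and 2 (8.59 and 8.76 against 8.07 and 8.26). Shisa6 and Shisa5 rose by 0.68 and 0.67 (adjusted p = 0.00903 and 0.0128). The firmest fall was Sytl2, a Rab27 effector in vesicle docking. Its siScramble arrays read 7.82 to 8.04 (median 7.92) and its siAirn-001.2 arrays 7.29, 7.14, 6.94 and 6.90, a fall of 0.85 ± 0.08 (adjusted p = 0.000142) with a gap between the groups on every array.

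Among the metabolic lists, that of serine, folate and one-carbon metabolism held the largest share of calls. The lists were drawn with earlier results of these data known, so this rank is no separate support. In mitochondria Shmt2 splits serine into glycine and a folate-bound carbon unit, Mthfd2 oxidises that unit and Aldh1l2 releases it with production of NADPH, while Phgdh opens serine synthesis in the cytosol. Of 22 measured genes of serine, folate and one-carbon metabolism 4 rose and 1 fell (22.7% called, against 0.951% of all genes), with a list median of -0.004. Shmt2 read 10.09 to 10.32 (median 10.19) on siScramble and 11.04, 10.77, 11.08 and 11.11 on siAirn-001.2. No arrays overlapped, and the rise of 0.80 ± 0.10 (1.74-fold, adjusted p = 0.00121) was called in each pair alone (0.71, adjusted p = 0.0325, and 0.89, adjusted p = 0.000868). Mthfd2 rose by 0.51 ± 0.09 (adjusted p = 0.0116), from 10.34 to 10.81 (median 10.45) to 10.97, 11.15, 11.02 and 10.98. Aldh1l2 rose by 0.62 ± 0.11 (adjusted p = 0.0161), more in replicates 1 and 2 (0.88) than in 3 and 4 (0.36). Phgdh rose by 0.31 ± 0.07 (adjusted p = 0.0444), and lost its call without siScramble 5 and 6 (adjusted p = 0.0649).

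The exception was Mthfd2l, the close paralogue of Mthfd2, which fell by 0.76 ± 0.15 (adjusted p = 0.0276). It read 7.69 to 8.36 on siScramble and 7.22, 7.26, 7.26 and 7.57 on siAirn-001.2, and neither pair alone called it (adjusted p = 0.0851 and 0.0803). Pycr1, the mitochondrial enzyme of proline synthesis, was called without siScramble 5 and 6 (0.78, adjusted p = 0.0306) but not with all 6 (0.56, adjusted p = 0.199). Among the promoters found for 4 of the 5 called members, that of Shmt2 held a match to the motif of nuclear respiratory factor 1 (NRF1), an activator of many mitochondrial genes. The stretch from 250 bases before to 50 after the gene start is shown for Shmt2 and for Atp5k, the called gene of the respiratory chain that held the same match, 5′ to 3′ on the gene's strand, with the match in capitals. The sequences are from RefSeq, build GRCm38.p6, at chr10:127522395-127522694 (minus strand) and chr5:108434350-108434649 (minus strand).
Shmt2: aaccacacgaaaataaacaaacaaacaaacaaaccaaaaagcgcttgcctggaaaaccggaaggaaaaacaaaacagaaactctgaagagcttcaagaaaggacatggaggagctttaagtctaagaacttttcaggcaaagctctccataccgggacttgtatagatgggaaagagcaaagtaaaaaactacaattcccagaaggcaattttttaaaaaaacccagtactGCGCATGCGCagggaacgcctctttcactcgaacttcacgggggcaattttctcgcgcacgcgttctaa
Atp5k: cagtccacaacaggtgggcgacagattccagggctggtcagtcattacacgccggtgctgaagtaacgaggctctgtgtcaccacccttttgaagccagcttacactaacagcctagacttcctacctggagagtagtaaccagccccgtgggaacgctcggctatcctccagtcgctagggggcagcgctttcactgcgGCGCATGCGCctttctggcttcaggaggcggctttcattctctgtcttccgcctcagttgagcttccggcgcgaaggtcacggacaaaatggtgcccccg
The match began 19 bases upstream of the start in Shmt2 and 50 in Atp5k. The motif (GCGCA and GCGC, 1 base of any kind between them), searched on both strands, was in 4.6% of all 32851 promoters in the table, in 2 of 19 promoters found for 18 of the 22 one-carbon genes (10.5%), in 8 of 34 found for 32 complex I genes (23.5%) and in 9 of 33 found for 31 genes of complexes II to V (27.3%). The motif of the amino acid stress factor ATF4, TGATGNAA, was in 1 of the 19 one-carbon promoters, that of Pycr1, against 3.97% of all. A match is only a string of letters in this window and does not show that a factor binds.

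Respiratory chain genes were slightly higher across most of their subunits. Complexes I to IV pass electrons from nutrients to oxygen and complex V makes ATP from the resulting proton gradient. Among 36 complex I genes 34 had a change above 0, with a median of 0.134, and among 38 genes of complexes II to V 34 did, with a median of 0.105. Over all genes, 9875 of 20193 (48.9%) were above 0 and the median was -0.002. Few passed the test singly: 1 complex I gene rose and 5 of complexes II to V did, and none fell (0.48% of all genes rose). By array, the complex I medians were 0.119, 0.191, 0.085 and 0.179 on siAirn-001.2 replicates 1 to 4, all above the siScramble range of -0.058 to 0.045. The medians of complexes II to V were 0.185, 0.196, 0.029 and 0.188 against -0.048 to 0.065, so replicate 3 overlapped the controls. Genes of 1 list are not independent replicates, and no test was made of a list.

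The called genes were core and accessory subunits. Ndufb8 of complex I read 10.26 to 10.37 (median 10.29) on siScramble and 10.68, 10.48, 10.64 and 10.96 on siAirn-001.2, a rise of 0.39 ± 0.08 (limma adjusted p = 0.0264). Uqcrfs1, the Rieske iron-sulfur protein of complex III, rose by 0.43 ± 0.08 (adjusted p = 0.0181) and its hinge subunit Uqcrh by 0.29 ± 0.06 (adjusted p = 0.0382). In complex IV, Cox6b1 rose by 0.40 ± 0.08 (adjusted p = 0.0215) and Cox5b by 0.30 ± 0.06 (adjusted p = 0.0313). Atp5k, a small subunit of the ATP synthase, rose by 0.33 ± 0.07 (adjusted p = 0.0346). In all 6 the groups did not overlap, and 5 of the 6 were called with replicates 3 and 4 alone, Atp5k excepted (adjusted p = 0.0759), while none was called with replicates 1 and 2 alone. The muscle forms of complex IV subunits behaved otherwise. Cox6a2 read 9.47 to 10.03 (median 9.73) on siScramble and 11.04, 10.98, 9.69 and 9.85 on siAirn-001.2, so it rose with replicates 1 and 2 (1.25, adjusted p = 0.0078) and was at the control level with 3 and 4 (0.01). Cox7a1 likewise rose with replicates 1 and 2 alone (0.83, adjusted p = 0.0235; 0.19 with 3 and 4).

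Fatty acid oxidation, which feeds acetyl units into the tricarboxylic acid cycle, had 25 of 30 genes above 0 and a median of 0.114. Over all genes 48.9% were above 0 and 0.48% were called higher. The 1 called gene of fatty acid oxidation was Ucp2, an uncoupling protein of the inner membrane. It read 10.67 to 10.98 (median 10.79) on siScramble and 11.27, 11.28, 11.26 and 11.20 on siAirn-001.2. That rise of 0.43 ± 0.07 (adjusted p = 0.0124) was 0.46 in replicates 1 and 2 and 0.41 in 3 and 4. Pdk4, a kinase that shuts pyruvate out of the cycle, changed by 0.44 (adjusted p = 0.0597), and by 0.51 without siScramble 5 and 6 (adjusted p = 0.039). In the tricarboxylic acid cycle list 17 of 20 genes were above 0 with a median of 0.074. None was called by limma, and 2 had an unadjusted p under 0.05. Dlat and Pdhx, both of the pyruvate dehydrogenase complex, were the largest at 0.25 (adjusted p = 0.173) and 0.23 (adjusted p = 0.193). The mitochondrial ribosome showed no such shift, with 36 of 71 genes above 0 and a median of 0.004, and Mrpl21 was its 1 called gene.

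**Figure D3:**
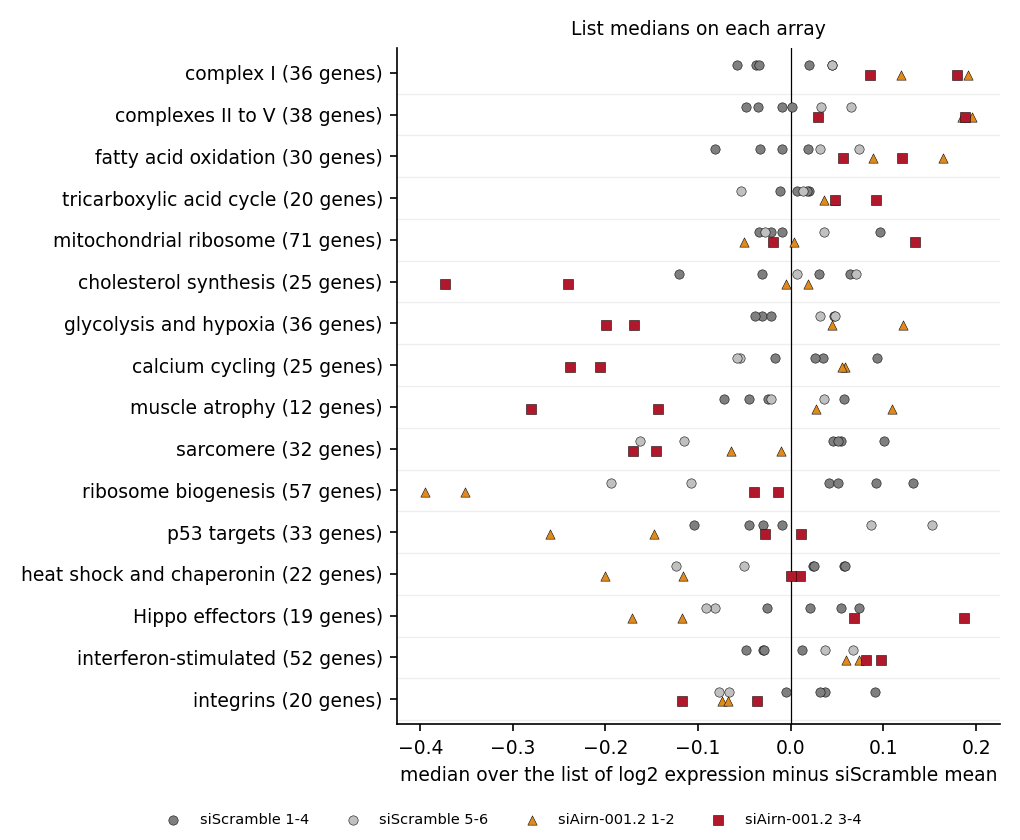
Median over each gene list of log2 expression minus the siScramble mean (horizontal axis), 1 point per array, for 16 lists. The complex I medians of all 4 siAirn-001.2 arrays lie above every siScramble array, whereas cholesterol synthesis, glycolysis and hypoxia and calcium cycling are low in replicates 3 and 4 only (-0.373 and -0.24, -0.169 and -0.199, -0.206 and -0.238).

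Several programs had members called with 1 pair of siAirn-001.2 arrays and not with all 4. Members named for these programs were chosen after their values were seen. Glycolysis and hypoxia genes are induced together by the oxygen-sensitive factor HIF-1, which Egln3 as a prolyl hydroxylase helps to degrade. Of 36 such genes 1 was called with all 4 arrays, where 0.47% of all genes fell. It was P4ha1, a collagen prolyl hydroxylase that fell by 0.25 ± 0.05 (adjusted p = 0.0444). With replicates 3 and 4 alone 10 of the 36 fell and none rose (2.73% of all genes fell in that fit), and with replicates 1 and 2 alone none was called. The list medians by array were 0.045, 0.121, -0.169 and -0.199, against -0.039 to 0.048 on siScramble. Pfkl, the liver-type phosphofructokinase, read 10.12 to 10.58 (median 10.28) on siScramble and 10.48, 10.44, 8.49 and 8.76 on siAirn-001.2, which gave -1.71 (adjusted p = 1.67e-05) with replicates 3 and 4 and 0.12 with 1 and 2. Bnip3, a mitochondrial receptor for mitophagy, read 9.91 to 10.61 (median 10.37) on siScramble and 10.77, 11.14, 8.55 and 9.35. Its replicates 1 and 2 were above and 3 and 4 below every control array. Its change was -1.38 with replicates 3 and 4 (adjusted p = 0.00739) and 0.63 with 1 and 2 (adjusted p = 0.297). The same order held for Egln3 (-1.26, adjusted p = 0.0165, and 0.71, adjusted p = 0.326), for the lactate exporter Slc16a3 (-1.12, adjusted p = 0.00224, and 0.38, adjusted p = 0.415) and for the vasodilator peptide gene Adm (-0.88, adjusted p = 0.00172, and 0.32, adjusted p = 0.309). On the siAirn-001.1 arrays Bnip3 read 11.13, 11.33, 10.40 and 10.36, also higher in replicates 1 and 2, but there replicates 3 and 4 lay inside the control range.

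Cholesterol synthesis genes, driven together by the sterol-sensing factor SREBP-2, followed the same split. None of 25 was called with all 4 arrays by limma (11 had an unadjusted p under 0.05), and 5 of the 25 had a change above 0, with a median of -0.176. The medians by array were -0.005, 0.019, -0.373 and -0.240, against -0.121 to 0.070 on siScramble, so only replicates 3 and 4 lay below the controls. On siAirn-001.1 replicates 1 to 4 they were 0.17, 0.083, 0.012 and 0.073. For glycolysis and hypoxia the siAirn-001.1 medians were 0.107, 0.172, 0.035 and 0.021. With siAirn-001.2 replicates 3 and 4 alone 10 genes fell and Ebp, a sterol isomerase, rose (0.35, adjusted p = 0.0412). In that fit 2.73% of all genes fell and 1.76% rose. Mvd, which makes the isoprene unit, read 9.65 to 10.15 (median 9.88) on siScramble and 9.96, 9.90, 9.03 and 8.99 on siAirn-001.2, giving -0.87 (adjusted p = 0.000879). Hmgcs1, the synthase at the head of the pathway, read 10.68 to 10.97 (median 10.86) and 10.91, 10.93, 10.12 and 10.25, giving -0.65 (adjusted p = 0.0112). Nsdhl (-0.76, adjusted p = 0.00334), Cyp51 (-0.58, adjusted p = 0.00364), Sqle (-0.44, adjusted p = 0.0163) and the regulator Srebf2 itself (-0.43, adjusted p = 0.0167) fell in the same fit. With replicates 1 and 2 the same 4 gave 0.06, -0.05, -0.19 and -0.02, none of them called. The promoter of Hmgcs1 held the list's 1 match to the sterol regulatory element TCACNCCAC, found in 1.24% of all promoters and in 1 of 20 found for 17 of the list's genes. It is shown from RefSeq, build GRCm38.p6, chr13:119690101-119690400 (plus strand), with the match, 137 bases upstream of the start, in capitals.
Hmgcs1: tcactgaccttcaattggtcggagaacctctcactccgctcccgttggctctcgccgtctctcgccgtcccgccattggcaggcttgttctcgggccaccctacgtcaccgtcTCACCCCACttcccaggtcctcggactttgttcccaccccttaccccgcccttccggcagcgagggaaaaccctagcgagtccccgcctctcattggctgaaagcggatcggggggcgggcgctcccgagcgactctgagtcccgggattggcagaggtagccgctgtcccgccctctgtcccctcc

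**Figure D4:**
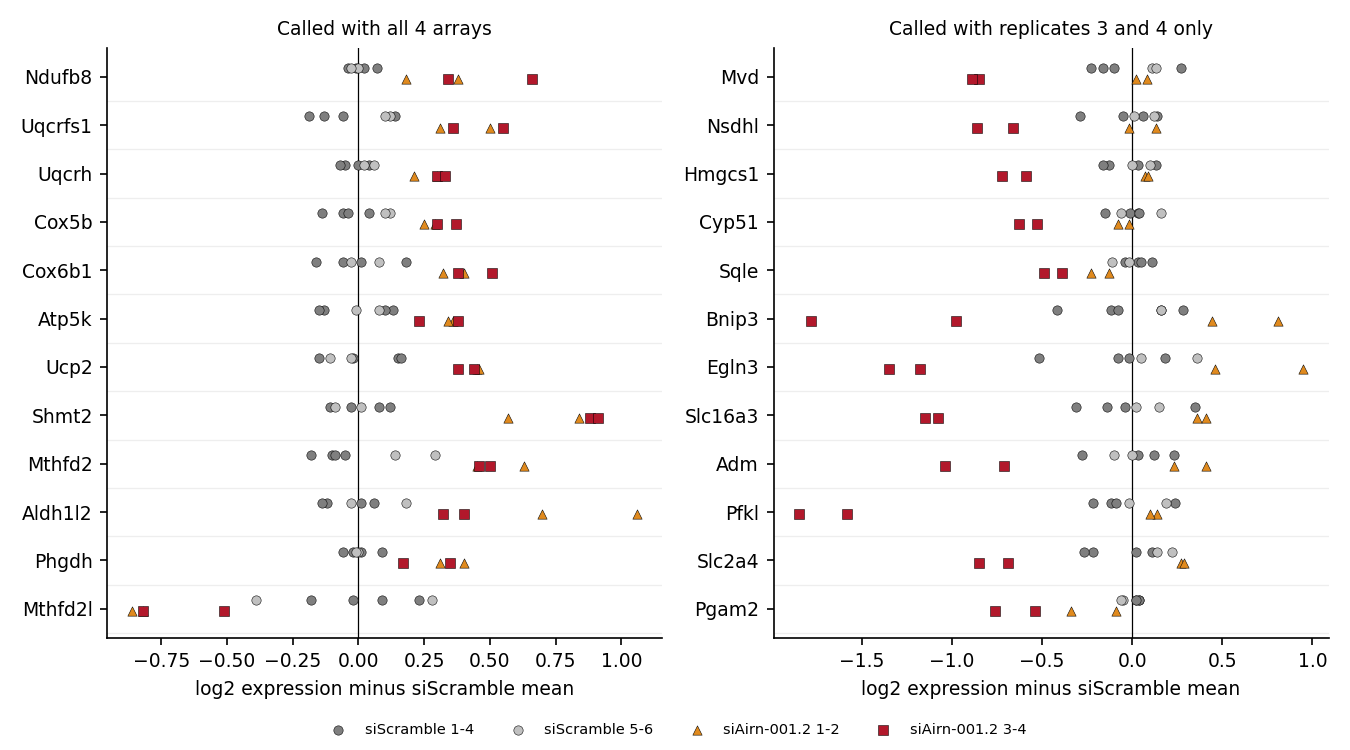
Log2 expression minus the siScramble mean (horizontal axis), 1 point per array, for metabolic genes called with all 4 siAirn-001.2 arrays (left) and genes called with replicates 3 and 4 only (right). On the left both pairs lie on the same side of 0. On the right replicates 3 and 4 lie below the controls, with Pfkl lowest, and replicates 1 and 2 lie above them or closer to 0.

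Some genes moved in opposite directions in the 2 pairs, each called in its own fit. Igfbp5, a secreted binding protein of insulin-like growth factors, read 10.47 to 10.86 (median 10.71) on siScramble and 11.20, 11.35, 9.32 and 9.45 on siAirn-001.2. It was 0.58 higher in replicates 1 and 2 (adjusted p = 0.0235) and 1.31 lower in 3 and 4 (change -1.31, adjusted p = 8.91e-06), and with all 4 the change was -0.36 ± 0.31 (adjusted p = 0.824). Slc38a3, a glutamine transporter, read 9.70 to 10.13 (median 9.84) and 10.64, 10.62, 8.99 and 9.15, giving 0.75 (adjusted p = 0.0078) and -0.81 (adjusted p = 0.000868). Fbxo32, the muscle ubiquitin ligase atrogin-1, gave 0.54 (adjusted p = 0.0332) and -0.69 (adjusted p = 0.00207), and the neutral amino acid transporter Slc1a4 gave 0.50 (adjusted p = 0.0376) and -0.37 (adjusted p = 0.0256). For such genes the mean of the 4 arrays describes none of them. On the siAirn-001.1 arrays Igfbp5 read 11.59, 11.67, 11.66 and 11.57 and Slc38a3 11.31, 11.23, 11.33 and 11.41, above siScramble in both pairs.

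Further lists had array medians or calls that went with 1 pair. Muscle atrophy genes (12) had medians of 0.027, 0.109, -0.28 and -0.143 on siAirn-001.2 against -0.072 to 0.057 on siScramble, and none was called with all 4 arrays by limma, 1 having an unadjusted p under 0.05. With replicates 3 and 4, Bnip3, Fbxo32, the sarcomeric ubiquitin ligase Trim55 (-0.61, adjusted p = 0.0184) and the coactivator Cited4 (-0.51, adjusted p = 0.0101) fell. Hippo pathway effectors (19) ran the other way, at -0.171, -0.117, 0.187 and 0.068 against -0.092 to 0.074, and Amotl2 and the kinase gene Lats1 rose with replicates 3 and 4. Only replicate 3 lay above the controls for that list, and replicates 1 and 2 lay below them. Among 41 lysosomal genes, 2 rose and 4 fell with replicates 3 and 4, among them Grn, the gene of progranulin (-0.71, adjusted p = 0.00117, and 0.07 with replicates 1 and 2). In the fit with replicates 3 and 4, to which these counts belong, 1.76% of all genes rose and 2.73% fell.

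Calls among contraction and excitation genes were few in number, and their share differed by list. Of 32 sarcomere genes none was called by limma (8 had an unadjusted p under 0.05), with a median of -0.102. The 2 siScramble arrays that stand apart had sarcomere medians of -0.163 and -0.115, near those of siAirn-001.2 replicates 3 and 4 at -0.145 and -0.17. Without them Actn2, alpha-actinin of the Z-disc, changed by -0.56 (adjusted p = 0.00326), Csrp3 by -0.66 (adjusted p = 0.0217) and Myoz2 by -0.57 (adjusted p = 0.0117). Of 25 calcium-cycling genes 1 was called (4%, against 0.951% of all genes), S100a1, a calcium sensor that activates the calcium pump. S100a1 read 11.27 to 11.50 (median 11.36) on siScramble and 12.02, 11.81, 11.48 and 11.73 on siAirn-001.2, a rise of 0.40 ± 0.08 (adjusted p = 0.0347) in which replicate 3 overlapped the controls and which was not called without siScramble 5 and 6 (adjusted p = 0.0638). Leaving those 2 arrays out instead called falls of the calsequestrins, calcium stores of the sarcoplasmic reticulum, Casq1 (-0.43, adjusted p = 0.0176) and Casq2 (-0.44, adjusted p = 0.006). With replicates 3 and 4 alone 5 calcium genes fell and none rose, in a fit where 2.73% of all genes fell. They included Pln, the pump's inhibitor phospholamban (-0.78, adjusted p = 0.0015), and Cacna1c, the pore of the L-type calcium channel (-0.71, adjusted p = 0.0116). Pln read 13.04, 13.22, 12.03 and 12.28 on siAirn-001.2 against 12.77 to 13.08 (median 12.92), so replicate 2 was above and 3 and 4 were below the controls.

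Among 28 channel and connexin genes 1 rose and 2 fell (10.7% called, against 0.951% of all genes). Kcnj3, a subunit of the acetylcholine-gated potassium channel of atrial cells, rose by 0.67 ± 0.13 (adjusted p = 0.0164), from 7.31 to 7.70 (median 7.54) to 8.51, 8.42, 7.89 and 8.01. Its partner subunit Kcnj5 was not called with all 4 arrays (-0.19, adjusted p = 0.86) and fell with replicates 3 and 4 (-0.74, adjusted p = 0.000168). Ncs1, a neuronal calcium sensor, fell by 0.79 ± 0.14 (adjusted p = 0.0155). Gja1, connexin 43 of gap junctions, read 11.15 to 11.34 (median 11.26) on siScramble and 10.97, 11.11, 10.80 and 10.76 on siAirn-001.2. All 4 were below the controls and the fall was 0.36 ± 0.07 (adjusted p = 0.0283). Of 17 adrenergic and muscarinic signalling genes 1 was called (5.88%), the alpha-2B receptor Adra2b. It fell by 0.62 ± 0.09 (adjusted p = 0.00592), from 8.75 to 9.13 (median 9.01) to 8.60, 8.37, 8.29 and 8.21. No cardiac transcription factor of 28 was called by limma (6 had an unadjusted p under 0.05). Tbx18, of the sinus horn, and Gata6 had the largest values, -0.42 (adjusted p = 0.0586) and -0.35 (adjusted p = 0.219). In replicates 3 and 4 alone, 4 of these factors fell (2.73% of all genes did): Gata5 (-0.65, adjusted p = 0.00116), Nr2f2 (-0.47, adjusted p = 0.00459), Mef2c (-0.45, adjusted p = 0.0232) and Gata6 (-0.55, adjusted p = 0.0285). Leaving out siScramble 5 and 6 added Tbx18 (-0.52, adjusted p = 0.0142) and Hey1 (-0.40, adjusted p = 0.0354). Of 16 hypertrophy and stress markers 0 were called by limma and 2 had an unadjusted p under 0.05, with Postn at -0.81 (adjusted p = 0.515). Postn, a matricellular protein, read 8.78, 8.82, 8.45 and 8.68 on siScramble replicates 1 to 4 but 6.95 and 6.78 on 5 and 6, and 6.63, 6.76, 7.63 and 8.04 on siAirn-001.2. Without siScramble 5 and 6 Postn was called lower (-1.42, adjusted p = 0.0254) and Gdf15, a stress-induced secreted factor, higher (0.73, adjusted p = 0.0174).

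Adhesion and matrix genes held several of the largest falls. Over all genes 0.47% fell. Integrins bind matrix proteins as pairs of an alpha and a beta chain, and of 20 measured 2 fell and none rose, with a median of -0.09. Itga8 read 7.90 to 8.69 (median 8.43) on siScramble and 7.63, 7.37, 7.58 and 7.43 on siAirn-001.2, a fall of 0.86 ± 0.14 (adjusted p = 0.00892) that was -0.86 in replicates 1 and 2 and -0.85 in 3 and 4. Itgb3 read 8.72 to 9.14 (median 8.87) and 8.38, 8.56, 7.49 and 7.77, a fall of 0.84 ± 0.16 (adjusted p = 0.0217) that was -0.42 in replicates 1 and 2 and -1.26 in 3 and 4. Fitted with replicates 3 and 4 alone, Itga4 rose (1.09, adjusted p = 0.00244; 0.64 and not called with all 4), while Itga1 (-0.68, adjusted p = 0.00367) and Itga6 (-0.81, adjusted p = 0.00122) fell beside Itga8 and Itgb3. In that fit 1.76% of all genes rose and 2.73% fell. Of 13 small leucine-rich proteoglycans, which bind collagen fibrils, Fmod fell by 0.90 ± 0.15 (adjusted p = 0.0125) and Prelp by 0.73 ± 0.10 (adjusted p = 0.00239). Fmod read 7.63 to 8.40 (median 8.04) on siScramble and 7.14, 7.05, 7.23 and 7.09 on siAirn-001.2, and its 2 lowest controls were siScramble 5 and 6. Of 36 collagen and basement membrane genes Fbn2, a microfibril protein, fell by 0.58 ± 0.09 (adjusted p = 0.00692) and Matn3 by 0.64 ± 0.14 (adjusted p = 0.0367). Itih4, a rise, was the 1 called gene among 30 of matrix remodelling (0.48% of all genes rose).

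Stress and growth lists held single calls or none with all arrays. Over all genes 0.48% rose and 0.47% fell, and 1 call is not read as a change of its list. Of 22 integrated stress response genes Gadd45a rose, by 0.35 ± 0.08 (adjusted p = 0.0446), and the list median was 0.089. Without siScramble 5 and 6, 5 rose (Asns, Gadd45a, Gdf15, Herpud1 and Nupr1) and none fell, in a fit where 0.901% of all genes rose. Nupr1, a stress-induced chromatin protein, read 8.65, 8.65, 8.83, 8.54, 9.50 and 9.31 on siScramble 1 to 6, so controls 5 and 6 lay above siAirn-001.2 replicates 3 and 4 (9.87, 10.09, 9.13 and 9.03 on replicates 1 to 4). Gadd45a was also the 1 called gene of 33 p53 targets, whose median was -0.134. Ribosome biogenesis genes, which build ribosomes in the nucleolus, had 5 of 57 above 0 and a median of -0.191, with none called by limma (15 had an unadjusted p under 0.05). Their array medians were -0.352, -0.395, -0.040 and -0.014 on siAirn-001.2, and -0.108 and -0.194 on siScramble 5 and 6 against 0.041 to 0.132 on 1 to 4. Low values were thus found in replicates 1 and 2 and in part in 2 control arrays. Heat shock and chaperonin genes (22) had medians of -0.116, -0.200, 0.010 and 0.000 against -0.124 to 0.059 on siScramble, so only replicate 2 lay below the controls. None was called by limma and 4 had an unadjusted p under 0.05. Of 17 genes of the insulin-like growth factor axis Igfbp4 fell, by 0.53 ± 0.12 (adjusted p = 0.0389; 0.0618 without siScramble 5 and 6), while Igf2bp2, an RNA-binding protein of that axis, changed by -0.23 ± 0.11 (adjusted p = 0.454).

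In other lists with calls, 1 or 2 members passed with all arrays. In that fit 0.48% of all genes rose and 0.47% fell, and such calls describe single genes and not their lists. The proton pump subunits Atp6v0e2 and Atp6v1b2 (0.42 ± 0.09, adjusted p = 0.0368) rose among 41 lysosomal genes, and the proteasome subunit Psmb6 (0.48 ± 0.08, adjusted p = 0.0128) among 34. Rela, the activating subunit of NF-kappaB, rose by 0.43 ± 0.09 (adjusted p = 0.0376) as the 1 called gene of 35 in the cytokine and NF-kappaB list. Arc rose by 0.63 ± 0.12 (adjusted p = 0.016) among 26 immediate early genes. Nr4a2, an orphan receptor of the same list, read 8.65, 8.40, 9.69 and 9.53 against 8.12 to 8.42 (median 8.35) and was called with replicates 3 and 4 alone (1.32, adjusted p = 1.06e-05). Fzd2, a Wnt receptor, rose by 0.30 ± 0.07 (adjusted p = 0.0448) among 29 Wnt genes. Phlda1, induced by growth factors, fell by 0.59 ± 0.13 (adjusted p = 0.0376) among 22 MAP kinase feedback genes. Tnrc6b, a partner of Argonaute in RNA silencing, rose by 0.41 ± 0.09 (adjusted p = 0.0378) among 15 genes of RNA interference. None was called by limma among 52 interferon-stimulated genes (9 with an unadjusted p under 0.05; median 0.06) and 22 sensors of double-stranded RNA (1; median 0.065). With replicates 3 and 4 alone 4 of the 52 interferon-stimulated genes rose (1.76% of all genes did), led by the class I antigen H2-K1 (0.58, adjusted p = 0.000942). With all arrays limma called 0 genes in the lists of DNA replication (39 genes), mitosis (34), histones (24) and apoptosis (30). The same held for Nrf2 targets (26), protein folding in the endoplasmic reticulum (21), aminoacyl-tRNA synthetases (18), lipogenesis (23) and TGF-beta and BMP (36). It also held for Notch (15), Hippo (19), autophagy (24) and Myc and G1 cyclins (28). Each had 2 to 9 genes at an unadjusted limma p under 0.05, except mitosis and endoplasmic reticulum folding, which had 1. Each of these lists had at least 1 call in a fit on fewer arrays. Among Myc and G1 cyclins 2 rose and 3 fell with replicates 3 and 4 alone, and 3 DNA replication genes fell. In that fit 1.76% of all genes rose and 2.73% fell. With siScramble 1 to 4 as the only controls, 3 aminoacyl-tRNA synthetases rose, and 2 TGF-beta and BMP genes rose and 2 fell. There 0.901% of all genes rose and 1.14% fell.

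The last comparison asks where siAirn-001.2 differed from siAirn-001.1. The siScramble levels do not enter the differences, but their spread enters the test. Airn did not separate the reagents (-0.11 ± 0.25, adjusted p = 0.931, exact permutation p = 0.629 over 70 splits). There were 203 called genes (1.01%), 67 higher (0.332%) and 136 lower (0.674%) with siAirn-001.2. Same-numbered arrays of the 2 reagents deviated together, and with the replicate number as a block 293 genes were called (1.45%), 87 higher (0.431%) and 206 lower (1.02%). The split depended on scaling: centring each array gave 45 higher and 171 lower genes, and quantile normalization 117 and 139. Set against all 4 siAirn-001.1 arrays, siAirn-001.2 replicates 1 and 2 gave 1 called gene, a lower one (0.00495%), and replicates 3 and 4 gave 1761 (8.72%), of which 699 were higher (3.46%) and 1062 lower (5.26%). Fitted without the siScramble arrays 25 were called, so most of the calls rest on the spread that those arrays lend. Single arrays moved the count from 20 (without siAirn-001.2 replicate 3) to 571 (without replicate 2). Among the 136 lower genes the siAirn-001.2 mean was inside the siScramble range in 80 and the siAirn-001.1 mean in 11. Among the 67 higher genes these counts were 29 and 3. A 4-array mean can lie inside the range with no array there: Fbxo32 averaged 8.65 on siAirn-001.2. Its arrays read 9.34, 9.19, 7.88 and 8.21 against 8.51 to 8.82 on siScramble. These counts therefore do not place the difference in 1 reagent.

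Muscle genes made up part of the lower group. Of 32 sarcomere genes 5 were lower with siAirn-001.2 and none higher, with a median of -0.273 (0.008 over all genes), and 8 were lower with the block. Of all genes 0.674% were lower, and 1.02% with the block. Csrp3, the Z-disc LIM protein, read 9.44, 9.69, 9.35 and 9.60 on siAirn-001.2 and 10.27, 10.33, 10.78 and 10.91 on siAirn-001.1, a difference of -1.05 ± 0.19 (adjusted p = 0.0201). On siScramble it read 10.04 to 10.31 in replicates 1 to 4 but 9.41 and 9.52 in 5 and 6. In the atrophy list of 12, Fbxo32 (-1.25 ± 0.23, adjusted p = 0.0203), Trim55 (-0.78 ± 0.16, adjusted p = 0.0311) and Cited4 (-0.67 ± 0.12, adjusted p = 0.0201) were lower and none was higher. By the mean of the 4 arrays the largest differences were Slc38a3 (-1.47 ± 0.29, adjusted p = 0.0244; replicates 1 and 2, at 10.64 and 10.62, lay nearer to siAirn-001.1 than 3 and 4, at 8.99 and 9.15), Gfpt2 of the hexosamine pathway (-1.28 ± 0.19, adjusted p = 0.00622) and Zcchc5 (-1.27 ± 0.20, adjusted p = 0.00814) among the lower genes. Among the higher genes they were the coagulation initiator F3 (1.07 ± 0.18, adjusted p = 0.0136), the growth factor Bmp4 (1.02 ± 0.15, adjusted p = 0.00622) and the integrin chain Itga4 (0.95 ± 0.21, adjusted p = 0.0412). Bmp4 read 9.15, 8.94, 9.80 and 9.63 on siAirn-001.2, 8.53, 8.38, 8.15 and 8.38 on siAirn-001.1 and 9.53 to 9.83 (median 9.65) on siScramble, so siAirn-001.2 replicates 3 and 4 lay at the control level.

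Interferon-stimulated genes, which cells switch on after sensing foreign RNA, held several of the lower genes. Of 52, 8 were lower with siAirn-001.2 and none higher, with a median of -0.18, and 12 were lower with the block. Over all genes 0.674% were lower, and 1.02% with the block. Lgals3bp read 8.06, 8.06, 8.27 and 8.03 on siAirn-001.2 and 8.62, 8.69, 9.02 and 9.22 on siAirn-001.1, against 7.69 to 8.01 (median 7.88) on siScramble, a difference of -0.78 ± 0.12 (adjusted p = 0.00646). The groups were separate, and siAirn-001.2 lay just above the controls. Trim30a, an interferon-induced ubiquitin ligase of the TRIM family, differed by -0.91 ± 0.19 (adjusted p = 0.0289), Samd9l by -0.79 ± 0.16 (adjusted p = 0.0271) and Tapbp, which loads peptides on class I molecules, by -0.54 ± 0.10 (adjusted p = 0.0215). Among the sensors Tlr3 (-0.47 ± 0.10, adjusted p = 0.0332) and Mavs (-0.36 ± 0.08, adjusted p = 0.0387) were lower. Against siScramble, Tapbp also lay above the control range on all 4 siAirn-001.2 arrays, and Trim30a lay inside it on all 4. The core of the interferon-stimulated response element (GAAA repeated after any 2 bases), searched on both strands, was in 18 of 50 promoters found for 40 of the list's genes (36%) and in 3.44% of all. One of the 2 listed promoters of Trim30a, chr7:104465144-104465443 (minus strand, RefSeq build GRCm38.p6), is shown with the match, read on the opposite strand and 36 bases upstream of the start, in capitals.
Trim30a: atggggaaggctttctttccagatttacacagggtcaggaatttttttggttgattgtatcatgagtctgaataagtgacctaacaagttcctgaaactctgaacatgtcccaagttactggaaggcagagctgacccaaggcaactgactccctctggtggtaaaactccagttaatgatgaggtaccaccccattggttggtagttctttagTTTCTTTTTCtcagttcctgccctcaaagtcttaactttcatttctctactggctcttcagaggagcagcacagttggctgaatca

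**Figure D5:**
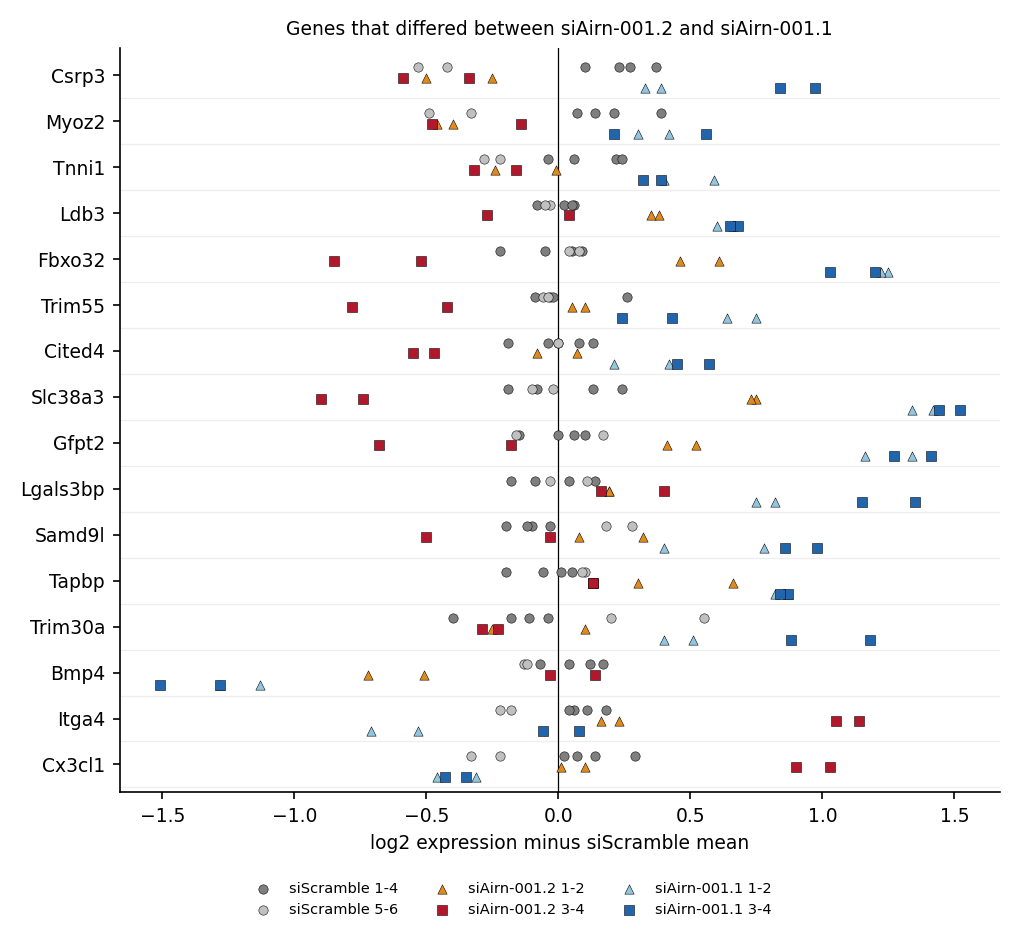
Log2 expression minus the siScramble mean (horizontal axis), 1 point per array, for genes called between siAirn-001.2 and siAirn-001.1. For Lgals3bp, Slc38a3 and Fbxo32 all siAirn-001.1 arrays lie above the controls, whereas siAirn-001.2 replicates 3 and 4 carry Itga4 and Cx3cl1 above them.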

How the data were processed

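The authors deposited log2 expression per transcript cluster, 1 column per array. RMA, which corrects background, quantile-normalizes and summarizes probes, and limma are named per the submitters' processing notes, without versions. A second deposited table held the same log2 values, rounded, with a largest difference of 0.005. The array model, genome build and batches were not given in the sources used here. No other per-sample columns were present (0).

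Here limma 3.58.1 in R 4.3.3 was fitted to all 14 arrays with 3 group means (11 residual and 5.31 prior degrees of freedom) and Benjamini-Hochberg adjustment over 20193 genes. The median SE was 0.0876 against siScramble and 0.096 against siAirn-001.1. The number of arrays limits the precision. The fit was also run on simulated data with independent noise on each array. That setting lacks the splits among arrays described above, so it does not show how the fit performs with them. Gene symbols are those of the table, 17433 of them current, 2048 older and 712 not found in RefSeq.

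The lists and members were chosen with earlier results of these data known. The genes named were Airn, the 10 largest rises and falls whose arrays did not overlap siScramble, the 5 largest each way between the reagents, up to 4 called members of each list by size and, where a list had none, its 2 largest. Predicted, non-coding and receptor-family symbols were passed over. Further members, Uqcrh and Phgdh among them, were chosen after their values were seen. Lists overlap and were described by counts and medians, with no test of a list. Some called genes are not reported here.

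Deviations of same-numbered arrays from their group means correlated at 0.32, 0.53, 0.36 and 0.43 between the reagents, all above 0.1, so the numbers were taken as pairs there. The alternatives were a fold threshold of 1.5, the replicate block, only the groups compared, centring, quantile normalization, leaving out the dimmest 25% of genes, array weights, a variance trend, leaving out each array, and either pair of siAirn-001.2 replicates. Leaving out siScramble 5 and 6, and the pairs between reagents, were chosen after seeing the data.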

Additional observations from a re-analysis of the deposited data

Results flagged for a closer look

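In 13 of 326 groups of arrays checked (108 named genes and 55 list medians, in siScramble and siAirn-001.2), 1 array stood far from the others by Dixon's criterion, which chance alone meets in about 1 of 20 groups. Among siScramble arrays, Mrpl21 read 7.91 on replicate 4 against 8.27 to 8.36 on the others. Replicate 1 was low for Adra2b (8.75 against 9.0 to 9.13) and F3 (9.88 against 10.11 to 10.18) and high for Trim55 (9.96 against 9.61 to 9.68). Among siAirn-001.2 arrays, Mthfd2l read 7.57 on replicate 4 against 7.22 to 7.26. Replicate 1 was low for the glycyl-tRNA synthetase Gars (11.94 against 11.99 or more) and high for Tnrc6b (10.09 against 9.79 to 9.84). The autophagy kinase Ulk2 read 9.31 on replicate 2 against 9.59 on each of the others.

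Of the list medians, given as log2 differences from the siScramble mean, 3 stood apart among siAirn-001.2 arrays. They were the leukocyte markers on replicate 2 (0.16 against -0.07 to -0.03), the adrenergic and muscarinic receptors on replicate 2 (0.20 against -0.06 to -0.05) and complexes II to V on replicate 3 (0.03 against 0.19 to 0.20). Among siScramble arrays the MAP kinase feedback list stood out on replicate 6 (0.03) and the proteasome on replicate 2 (0.06).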

How the results depend on the processing

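Against siScramble, 192 genes were called, and 30 with a fold threshold of 1.5, 300 after quantile normalization, 969 with array weights, 76 with siAirn-001.2 replicates 1 and 2, 907 with replicates 3 and 4 and 413 without siScramble 5 and 6. Leaving out 1 array gave 46 to 254. Same-numbered arrays of siAirn-001.2 and siScramble shared only a number (correlations of 0.04, -0.39, 0.08 and 0.15), and the replicate block, which in effect drops siScramble 5 and 6, gave 563 genes, 240 up and 323 down. Between the reagents 203 genes were called, and 86 with the fold threshold, 25 with only the groups compared, 509 with array weights, 1 with replicates 1 and 2 and 1761 with replicates 3 and 4, where siAirn-001.1 kept all 4 arrays. Leaving out 1 array gave 20 to 571. The change in Airn passed the threshold with the replicate block (-0.66, adjusted p = 0.0418), with array weights (-0.86, adjusted p = 0.0208) and with replicates 3 and 4 (-1.21), and ranged from -0.50 to -0.91 without single arrays.

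Among the genes named by rule, the sign against siScramble turned in some that were not called: Bnip3 (-0.77 to 0.10 without 1 array, positive without siAirn-001.2 replicate 3, and 0.63 with replicates 1 and 2), Trim55 (0.07), Mvd (0.05), Nsdhl (0.06) and Emr1 (0.05) with replicates 1 and 2, and Tek (0.09), Pnpla3 (-0.03) and Gpx1 (0.19) with replicates 3 and 4. Further genes described above by pair, such as Igfbp5, Pfkl and Egln3, also turned sign with replicates 1 and 2, and Bmp4 with 3 and 4. Of 1040 values of named genes without 1 array, 848 kept direction and call, 180 lost the call and 11 gained it. Of 1048 under the other settings, 871 kept both, 85 lost the call and 84 gained it. The cause of these shifts was not tested.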

Other observations

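Gene families outside the lists, chosen after their values were seen, held some of the called genes. Of 15 genes with a Pex symbol, most of them peroxins that build peroxisomes, 3 rose (Pex11a, Pex16 and Pex19) and none fell (0.48% of all genes rose), with 10 above 0, a median of 0.03 and a range of -0.13 to 0.76. Of 9 genes of the COP9 signalosome, which removes the modifier Nedd8 from ubiquitin ligases, 2 fell and none rose (0.47% of all genes fell). These were Cops7b (-0.54) and Gps1 (-0.42), and the 9 had a median of -0.09 and a range of -0.54 to 0.09. Among 6 genes of the Pparg coactivators and nuclear respiratory factors, regulators of mitochondrial gene expression, 0 were called by limma, with a range of -0.13 to 0.16.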
